A study of Mus musculus with 9 samples.

Results

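PiggyBac (PB) insertion sites with no Sleeping Beauty (SB) or boundary count within 1000 bp in the same animal numbered 760 of the 3164 called PB sites. They came from 68 of 119 Lazy Piggy mouse SHH medulloblastomas. Libraries were amplified from the PB part of the mobile element (named PB), from its SB part (IR) or from the junction between them (JX). Counts of the left and right PB ends (PBL and PBR) were added per animal and positions within 10 bp merged, and a site was called from 10 counts upwards if it also reached 1% of the highest PB site of the animal. A called site counted as away when no IR or JX count of that animal lay within 1000 bp, and the remaining 2404 called sites are named near sites. Members were thus chosen by PB, IR and JX counts, and their counts and distances are given as descriptions only.

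All animals carry the genotype label lazy_piggy and the tissue label of an induced SHH medulloblastoma. The authors' sample sheet gave 72 primary tumours as TAM+ (tamoxifen, 4 to 249 listed days in the 71 with 1 number) and 47 as TAM- (0 days). It lists chromosome 10 as local chromosome, taken here as the donor of the transposon, for 90 animals and chromosome 7 for 29. The labels name no promoter for the transposases, no strain and no age. The animal was the replicate. Per animal, medians were 3121504 IR counts, 362305 JX counts and 210945 PB counts. PB counts ranged from 1714 to 2853048, and the right PB end was the shallower one, with a median of 30660 counts against 165022 for the left. All positions are in mm9.

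SB and PB are cut-and-paste DNA transposons. SB inserts at TA dinucleotides and tends to land close to its donor locus, whereas PB inserts at TTAA and leaves no footprint when it is excised. In an element that joins both, an intact copy can be read from SB ends, PB ends and the boundary at a single locus, while a PB part that has moved on its own would be read from PB ends alone. The series states that mice with and without tamoxifen were compared to find genes that maintain the tumour. PB sites without SB counts in untreated tumours are therefore the background for those in treated tumours.

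On a log scale of distance, called PB sites fell into 2 groups. At 20 to 50 bp from the nearest IR or JX position lay 995 sites (31.4%), and 620 lay at 50 to 100 bp. Between 500 and 1000 bp there were 14 sites and between 1000 and 2000 bp 16, and 400 sites lay between 10000 and 100000 bp. These ranges widen with distance, and per bp the number of sites kept falling. The members had a median distance of 57931 bp, from 1006 to 955618 bp, and the near sites had a median of 44 bp. The share of the covered genome within 1000 bp of an IR or JX position of the animal was 0.874% at the median, from 0.458% to 3.18%. On the log scale the limit of 1000 bp lay between both groups.

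**Figure D1:**
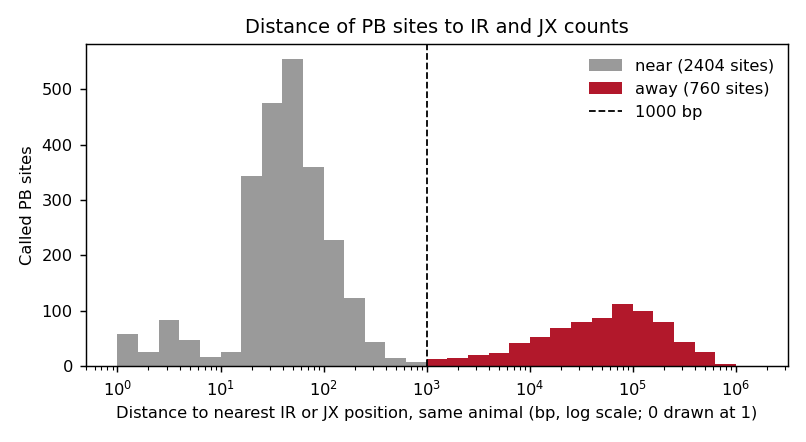
Number of called PB sites (vertical axis) by distance to the nearest IR or JX position of the same animal in bp (horizontal axis, log scale, distance 0 drawn at 1), with the 2404 near sites in grey, the 760 away sites in red and a dashed line at 1000 bp. Most near sites lie below 100 bp, the away sites gather beyond 10000 bp, and on this scale few sites lie close to the line.

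Just outside the limit lay a site downstream of Trim7 at chr11:48672923 (1006 bp), a site in intron 4 of Dlg2 at chr7:99339354 (1238 bp) and a site with no listed gene at chr10:111196581 (1275 bp). Just inside lay sites in intron 21 of Elac2 at chr11:64812959 (969 bp), in intron 8 of Tbc1d5 at chr17:51096257 (964 bp) and upstream of Apbb1 at chr7:112737041 (915 bp). These 6 sites held between 0.159% (Dlg2) and 3.36% (Trim7) of the PB counts of their animals.

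Most members carried little of their animal's PB signal. The share of the animal's PB counts at a member had a median of 0.320%, with quartiles of 0.1997% and 0.545%, against a median of 0.602% and an upper quartile of 2.52% at near sites. The median count was 70.5 at members and 1162 at near sites. At least 5% of the PB counts lay at 5 members (0.658%) and at 396 near sites (16.5%). A member was the highest PB site in 3 animals, and a near site in the other 116.

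The ends at which the sites were read also differed. Counts at both PB ends were found at 4 members (0.526%) and 776 near sites (32.3%). Of the members, 518 had PBL counts only and 238 had PBR counts only. The 4 members with both ends lay in Efcab6, Akr1c6, Pde7b and upstream of Acss3, and at each of them the lesser end had 5 counts or fewer. Since PB counts entered the choice of members, neither difference was tested. Both comparisons pool sites over animals, and 683 members (89.9%) came from animals below the median of PB counts. The part of depth in these differences was not tested.

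**Figure D2:**
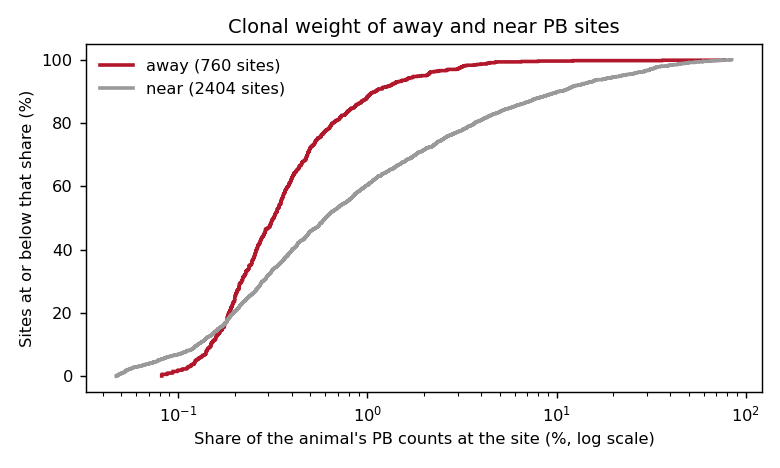
Cumulative share of sites (vertical axis, percent) by the share of the animal's PB counts at the site (horizontal axis, percent, log scale), for 760 away sites (red) and 2404 near sites (grey), pooled over animals. Above about 0.2% the away curve lies to the left, with a median of 0.320% against 0.602%, and the single away site at 77.1% is its right end.

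The member with the highest share lay in intron 10 of Efcab6, which encodes a protein with EF-hand calcium-binding domains, at chr15:83704365 in untreated tumour 33. It held 313673 PB counts, 313668 of them at the left end, or 77.1% of the animal's PB counts. The nearest IR and JX position of that animal was 186614 bp away, also in Efcab6, at chr15:83890979, with 3679 IR counts (0.104% of its IR counts) and 1115 JX counts. The highest IR sites of this tumour were in Gli3, which encodes a GLI family effector of SHH signalling (43.8% of IR counts), in Mapk8, a stress-activated kinase (20.7%), and at B930092H01Rik (18.9%). Each of these 3 had a called PB site within 80 bp of an IR or JX position, with 9.89%, 5.05% and 2.66% of the PB counts. The dominant PB site of this untreated tumour was therefore not at any of its highest IR sites. The Efcab6 position was also listed in the PB libraries of 6 other animals, all of the same lane, and 99.986% of the PB counts there were those of tumour 33. The fifth called PB site of the tumour, in intron 13 of Ttc13, was a member too, with 1.73%.

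The next highest member had no listed gene, at chr8:118588756, and held 36.3% of the PB counts of tamoxifen tumour 50, as 3297 counts at the right end. A site 155 kb upstream of Frmd6, which encodes a FERM domain protein, at chr12:71848177 held 12.1% in tamoxifen tumour 63, but this rested on 238 counts. A site with no listed gene at chr14:38289528 was the highest PB site of tamoxifen tumour 13 with 8.02%. A site 27.8 kb downstream of Pmvk, which encodes an enzyme of the mevalonate pathway, held 6.49% in untreated tumour 31.

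A further 7 members among the 12 with the highest share held between 3.79% and 4.78%. They lay in intron 1 of Ppm1a, a protein phosphatase gene (chr12:73870736), in intron 5 of Cdk14, a cyclin-dependent kinase gene (chr5:5176256), and in intron 3 of Ntng1, which encodes the axon guidance protein netrin-G1 (chr3:109717740). The remaining 4 lay upstream of Nckap5, upstream of Pabpc1, upstream of Ranbp6 and at chr14:44290019 with no listed gene. Of these 12 members, 9 were read at the right end alone and 2 at the left end alone.

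Members were gathered in few animals. The 4 animals with the most held 358 members (47.1%), all with tamoxifen, and 51 of 119 animals had none. Tamoxifen tumour 13 had 117 members among 166 called PB sites, and they held 57.2% of its PB counts. Tamoxifen tumours 55, 68 and 24 had 109, 68 and 64 members, with 31.9%, 18.6% and 33.2% of the PB counts. All of these tumours had shallow PB libraries, of 11387 to 62698 counts.

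Depth of the PB libraries moved with the away share over all animals. The 40 animals with the fewest PB counts (1714 to 71278) held 611 members, 41.8% of their called PB sites. The next 39 animals (71300 to 383632) held 122, or 14.3%, and the 40 deepest (407069 to 2853048) held 27, or 3.17%. Pearson's r between the away share and log10 PB counts was -0.60 and Spearman's rho -0.53 (n = 119). Without the 2 animals farthest from the median, r was -0.58, and it was below 0 in all 9 lanes. With log10 of the IR plus JX counts, r was -0.42 and rho was -0.27. Without the 2 farthest animals this r was -0.33, and it was above 0 in 1 of 9 lanes. PB, IR and JX counts all entered the choice of sites, so both relations are in part fixed by the rule and are given with no test. In 71 tamoxifen tumours r with the listed days was -0.15 (permutation p 0.221) and rho -0.16 (permutation p 0.176), -0.18 without the 2 farthest animals, and above 0 in 2 of 6 lanes.

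**Figure D3:**
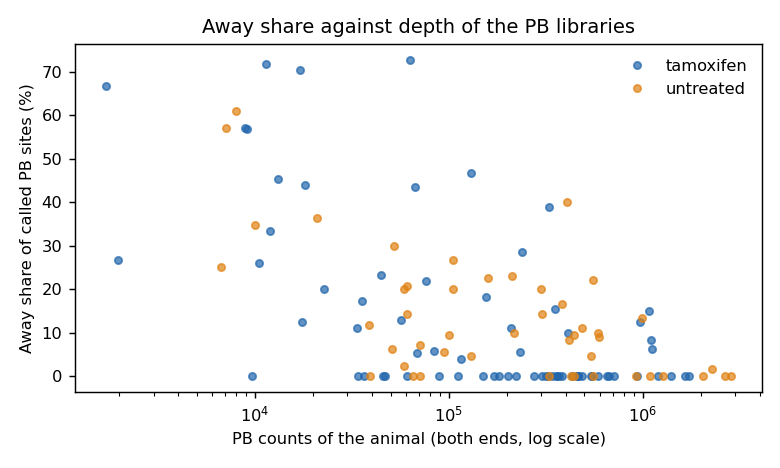
Away share of called PB sites (vertical axis, percent) against the PB counts of the animal (horizontal axis, log scale), 1 point for each of 72 tamoxifen (blue) and 47 untreated (orange) tumours. High away shares sit at low PB counts in both arms (Pearson's r -0.60).

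The arms were then compared, with untreated tumours as the background. The 72 tamoxifen tumours had an away share of 13.4% ± 20.5 (SD, n = 72), and the 47 untreated tumours one of 13.4% ± 14.7 (SD, n = 47). With tamoxifen it ranged from 0% to 72.7% with a median of 0%, and without from 0% to 60.9% with a median of 9.52%. The arms overlapped over nearly their whole range. A two-sided permutation test of the means gave p 1 (100000 resamples). In 5 of 9 lanes the tamoxifen tumours had the higher mean. The number of members per animal was 8.35 ± 21.9 with tamoxifen and 3.38 ± 6.05 without, with medians of 0 and 1 and highest values of 117 and 28 (permutation test, p 0.14, adjusted over 3 comparisons of arms 0.21). This difference did not exceed the spread between animals, and without the 4 tumours named above, which were picked for their many members, the means were 3.57 and 3.38 members.

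The share of animals with any member did differ. At least 1 member was found in 34 of 72 tamoxifen tumours (47.2%) and in 34 of 47 untreated tumours (72.3%), a difference of -25.1 percentage points (two-sided Fisher's exact test, p 0.00816, adjusted 0.0245). It was lower with tamoxifen in 8 of 9 lanes. Among the 40 animals with the fewest PB counts the shares were 76% and 80%, in the middle 39 they were 38.5% and 92.3%, and in the 40 deepest 23.8% and 52.6%. Called PB sites per animal had a median of 12 with tamoxifen and 16 without, but a mean of 30.2 and 21.1, and their part in the result was not tested.

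The call missed the threshold without positions shared between animals and under some other definitions of a site, and the cause was not tested. Positions within 10 bp of a PB count of another animal held 26 members in 17 of 47 untreated tumours and 125 members in 24 of 72 tamoxifen tumours. Without such positions members were found in 41.7% and 51.1% of animals (Fisher's exact test, p 0.35). With the donor chromosome left out the shares were 47.2% and 66.0% (p 0.0596). At 100 bp in place of 1000 bp they were 86.1% and 89.4% (p 0.779), and at 5% of the highest site 22.2% and 27.7% (p 0.519).

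**Figure D4:**
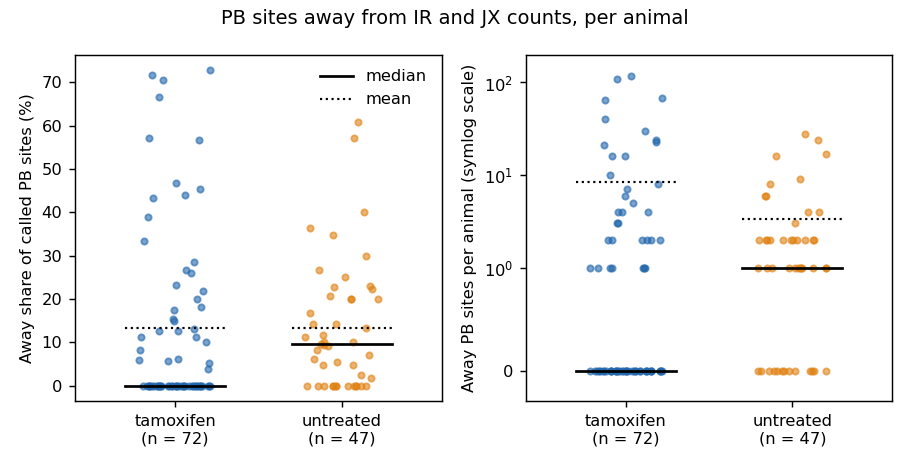
Away share of called PB sites (left, percent) and number of away PB sites (right, symlog scale) in each of 72 tamoxifen (blue) and 47 untreated (orange) tumours, with the median as a full and the mean as a dotted line. The mean shares are both 13.4%, and the 4 highest numbers, 64 to 117, are all tamoxifen tumours.

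Members lay on the donor chromosome less often than near sites of the same animals. Of the members 81 (10.7%) lay there, against 641 near sites (26.7%). Within the 68 animals that had both kinds, the share was 13.6% ± 24.2 (SD) for members and 26.4% ± 14.6 for near sites. The difference of -12.8 percentage points passed a two-sided sign-flip permutation test (p 0.00041, adjusted over 4 comparisons 0.00082) and was negative in 53 animals and positive in 10. In 19 animals there was 1 member, so the share of members could only be 0% or 100%. Where a class holds few of the sites, such an animal mostly counts as lower, here and in the tallies below. A median of 12.1% of the IR and JX positions of an animal lay on its donor chromosome, so a near position is easier to meet there, and the part of this in the result was not tested. At 100 bp in place of 1000 bp the difference was -1.39 points (p 0.626). In donor 10 animals 3 of 54 members on chromosome 10 (5.56%) and 120 of 480 near sites (25%) lay between 107000001 and 108000000, where the launch site neighbours Ppp1r12a and Otogl are.

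Over all 20 chromosomes tested in the same way, 2 (10%) passed an adjusted p of 0.05, with 3 at an unadjusted p under 0.05. Here too a near position is easier to meet on a chromosome where IR and JX positions are dense. The part of this in the calls was not tested, so they are in part set by the rule. Members were less frequent on chromosome 13, with 2.50% of an animal's members against 11.97% of its near sites (adjusted p 0.0002, lower in 46 and higher in 8 of 68 animals). Within animals members were also less frequent on chromosome 18, with 1.03% against 3.02% (adjusted p 0.0488, lower in 21 and higher in 9 animals), but pooled over animals the order was turned, with 3.29% against 2.83%. With the animal of the most members removed 1 chromosome passed, and 1 chromosome passed when lane 2, 3, 5, 6 or 8 was left out. Positions spread over animals (listed in at least 3, none with over 50% of the counts) held 218 near sites (9.07%) and 6 members (0.789%). Without them 2 chromosomes passed, and their part in the value of chromosome 13 was not tested. Chromosome 15 was higher among members, 4.73% against 1.32%, at an unadjusted p of 0.0345 (adjusted 0.23). The tallies of animals can part from the means. On chromosome 7 the mean was 9.62% for members and 7.24% for near sites, yet members were lower in 24 and higher in 14 animals.

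**Figure D5:**
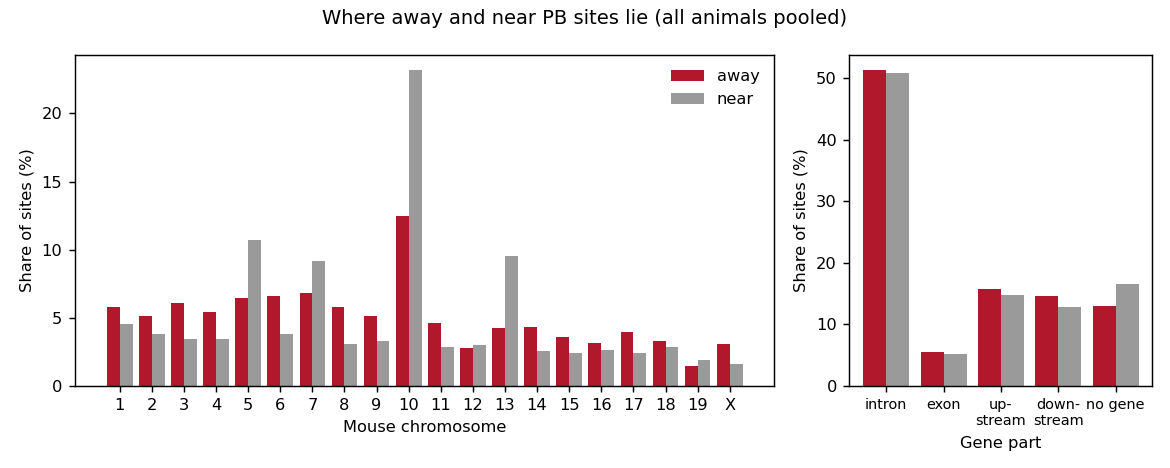
Share of sites (vertical axis, percent) by mouse chromosome (left) and by gene part (right) for 760 away sites (red) and 2404 near sites (grey), pooled over animals. Near sites stand above away sites most clearly on chromosomes 5, 7, 10 and 13. Among gene parts, sites with no listed gene differ most (12.9% of away and 16.6% of near sites).

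By gene part the members resembled near sites, apart from sites with no listed gene. Introns held 390 members (51.3%), exons 42 (5.53%), and 119 lay upstream, 111 downstream and 98 (12.9%) had no listed gene. Within animals, 56.3% ± 35.0 of members and 55.6% ± 16.2 of near sites lay in introns or exons (sign-flip permutation test, p 0.875, adjusted 0.875). At 100 bp in place of 1000 bp this difference was -8.94 points over 104 animals (permutation p 0.0074). Of the 5 parts tested 1 (20%) passed, the sites with no listed gene, with 11.3% ± 18.8 of members and 19.0% ± 10.8 of near sites (permutation test, adjusted p 0.0356, lower in 45 of 68 animals). Without positions spread over animals, 50.9% in place of 55.6% of near sites lay in introns or exons. The part of such positions, and of the rule, in the call for sites with no listed gene was not tested. First introns held 132 of the 390 intronic members (33.8%) and 456 of the 1222 intronic near sites (37.3%). The table lists 344 of the 432 members inside genes (79.6%) as disrupting the coding sequence. The 230 members outside genes lay a median of 30.6 kb from the assigned gene, from 0.047 to 556 kb.

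Orientation relative to the gene was even. Of 662 members with a gene 333 had the sense and 329 the opposite orientation. Within 67 animals 48.2% ± 33.7 of members and 46.8% ± 18.9 of near sites were in sense (sign-flip permutation test, p 0.743, adjusted 0.875). Neither value differed from the other beyond the spread between animals.

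Member positions were listed in other animals less often than near positions. No position was a member in 2 animals. PB counts of another animal were listed within 10 bp of 151 members (19.9%) and of 1460 near sites (60.7%). Within animals the shares were 32.0% ± 38.9 and 58.7% ± 23.2, a difference of -26.7 points (sign-flip permutation test, p 1e-05, the smallest that the resamples can give, adjusted 4e-05), lower for members in 52 of 68 animals. PB, IR and JX counts entered the choice of sites, and members had a median of 70.5 counts against 1162 at near sites. The difference is therefore in part set by the rule, and that part was not tested. Without positions spread over animals it was -22.5 points. Of the 151, 93 were listed in an animal of the same lane, and 99 in a single other animal. A called IR or JX position of another animal lay within 1000 bp of 24 members (3.16%) and of 642 near sites (26.7%).

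Within 1 Mb of a called IR site of the same animal lay 61 members (8.03%), where 4.22% of the covered genome of those animals is that close. With the donor chromosome left out they were 50 of 679 (7.36%, against 4.11% of the genome). The 50 came from 10 animals. With tamoxifen they were 47 of 538 members, in 7 animals (8.74%, against 4.96% of the genome). Without tamoxifen they were 3 of 141, in 3 animals (2.13%, against 0.840%). IR counts entered the choice of members and the members are not independent within an animal, so these shares are given as descriptions. Neither the shares nor the arms were tested here. The Efcab6 site of untreated tumour 33 is not among the 50, since the Efcab6 IR site held under 1% of the highest IR site.

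Members were assigned to 624 genes, of which 594 were hit in 1 animal, 26 in 2 and 4 in 3. These 4 genes were Tmtc2, Ncald, Syt1 and Dlg2. Tmtc2, which encodes a transmembrane protein with tetratricopeptide repeats, had members in 3 tamoxifen tumours. In tumour 50 it lay in intron 1 (chr10:104963549) with 1.05% of the PB counts, in tumour 63 in intron 8 (chr10:104722551) with 0.715%, and in tumour 17 far downstream, 447 kb from the gene, with 0.518%. The last of these is assigned by distance alone.

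Ncald, which encodes the neuronal calcium sensor neurocalcin delta, had members in 2 tamoxifen tumours and 1 untreated tumour and no near site in any animal. They lay in intron 2 (chr15:37341718, 0.785%), in intron 4 (chr15:37445207, 0.581%) and 27.7 kb upstream (chr15:37749899, 0.587%). All 3 were opposite to the gene and rested on 134, 105 and 59 counts.

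Syt1, which encodes the calcium sensor of synaptic vesicle release, is a neighbour of the chromosome 10 launch site. Its members lay in intron 8 in tamoxifen tumour 17 (0.225%), in intron 3 in untreated tumour 40 (5831 counts, 1.52%) and 20.5 kb upstream in tamoxifen tumour 64 (0.143%). They were 1854 to 4687 bp from the nearest IR or JX position, and 14 animals had near sites in Syt1. Dlg2, which encodes a postsynaptic scaffold protein, was hit in introns 3, 4 and 7, between chr7:99111130 and chr7:99339354, in 2 tamoxifen tumours and 1 untreated tumour with 0.159% to 0.662%.

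No gene differed between the arms. Of the 4 genes with members in at least 3 animals 0 (0%) passed Fisher's exact test after Benjamini-Hochberg adjustment, and 0 had an unadjusted p under 0.05. Tmtc2 had the lowest p, 0.277 (adjusted 1), and the other three had p 1. The lowest p that 3 animals can give here is 0.0592, so none of the 4 could have passed.

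Among genes hit in 2 animals, Kcnh2, which encodes a voltage-gated potassium channel of the ERG type, had a member in intron 9 in tamoxifen tumour 46 (chr5:23829088, 3947 counts, 3.04% of the PB counts). Its second member, 9.02 kb upstream in tamoxifen tumour 13, rested on 21 counts (0.123%). Kcnh2 had no near site in any animal. Mdm1 had members in both arms, the higher with 2.09% of the PB counts downstream of the gene. Ttc13 was hit in intron 13 in 2 untreated tumours, at positions chr8:127200863 and chr8:127202227, with 0.172% and 1.73%, both in sense orientation and read at the right end alone.

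Cacna2d3, which encodes an auxiliary subunit of voltage-gated calcium channels, was hit in intron 2 in 2 tamoxifen tumours with 1.15% and 0.272%. Mgll, which encodes monoglyceride lipase, was hit in introns 5 and 7 with 0.0937% and 1.37%, and Mical3 in introns 1 and 11 with 0.999% and 0.350%, each in 1 animal of each arm. Syne1, which encodes a nuclear envelope protein, had both members downstream, with 0.811% and 0.321%. Dscam, a cell adhesion gene, was hit in introns 1 and 5 with 0.236% and 0.820%, also in 1 animal of each arm. Ncoa7 was hit in 2 untreated tumours, in exon 6 and intron 2, with 0.247% and 0.774%. Lin7a and Nav3, on chromosome 10, had members in 2 tamoxifen tumours each, and near sites in 10 and 11 animals.

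Gene lists gave few members. Of all 22353 listed symbols 2.79% were assigned a member, and the median number of animals per gene was 0 for all genes. Of all members, 601 lay in 34 tamoxifen tumours and 159 in 34 untreated tumours, and the lists were not tested between arms. Of the 95 Kcn symbols, 5 (5.26%) were hit, in 5 tamoxifen tumours and 1 untreated tumour, with a median of 0 animals per gene. Beside Kcnh2 they included Kcnc1 (exon 3 in an untreated tumour with 0.323%, intron 1 in tamoxifen tumour 55 with 0.167%), Kcnma1 (0.969%) and Kcnh8 (0.437%), and 11 Kcn genes had near sites. Kcnb2 had neither members nor near sites. None of 20 SHH pathway genes had a member, where 4 had near sites, and Ptch1 had neither kind.

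Of the 8 neighbours of the chromosome 10 launch site 7 were hit, with a median of 1 animal, but in 6 animals in all, where near sites of the same genes were found in 52 animals. Ppp1r12a, the gene of a regulatory subunit of myosin phosphatase, had 1 member in intron 2 in tamoxifen tumour 63 (47 counts, 2.40%) and 58 near sites in 28 animals. Otogl, an inner ear gene related to otogelin, had 1 member, in intron 25 in an untreated tumour (3117 counts, 1.03%), and 42 near sites in 26 animals. Of the 6 neighbours of the chromosome 7 launch site Odz4 alone was hit, in 2 tamoxifen tumours (0.182% and 0.451%).

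Of 27 very long neuronal genes 7 (25.9%) were hit, in 7 tamoxifen tumours and 1 untreated tumour. Near sites lay in 18 of these genes, in 22 animals, and gene length was not taken into account. After Dlg2 the most weight lay at Auts2 (upstream, 1.02%), Park2 (intron 7, 0.758%) and Ctnna2 (intron 8, 0.485%). Of 20 chromatin regulators Chd7 alone was hit (intron 1, 0.207%). Of the 3 loci that resemble transposon sequence, En2 and Foxf2 had no member, and Sfi1 had 2, both in intron 6, at 1441 and 1442 bp from an IR or JX position, in tamoxifen tumours. Near sites in these 3 loci were found in 90 animals.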

How the data were processed

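The authors deposited unscaled whole-number counts for each position in each library. Positions are mm9 (submitters' processing notes), and aligner, counting rule and filters are not stated in the labels or headers. Sonicated tumour DNA received splinkerette adaptors, was digested with BamHI and amplified by nested PCR, per the labels' protocols. Arm, animal, lane, donor chromosome and days (another value, listed by the authors with no stated meaning) came from the authors' sample sheet of 868 lines for 832 libraries in 9 lanes. Counts hold no molecular identifiers and are not independent molecules.

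Counts were summed over ends and lanes (7 animals were in 2 lanes and count under the first), and 1 animal whose ID occurs in 2 spellings was joined. The 2 animals with conflicting arms were left out of the comparisons, as was every animal not listed solely as a TAM+ or TAM- primary tumour. The 8 tumours with no usable arm described below were among those left out. A merged site took the position, gene and gene part of its highest line. Gene parts, orientation and distances are the table's. A position was described as spread where at least 3 animals listed it and none held over 50% of its counts. Of 624 member symbols, 553 were current in the gene name table (GRCm38.p6, names only), 66 matched through a synonym and 5 did not match. Odz4 is Tenm4 there.

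Arms were compared with two-sided permutation tests of means (100000 resamples) and Fisher's exact test, and away with near sites by sign-flip permutation within animals, with Benjamini-Hochberg adjustment per family and a threshold of 0.05 (Python 3.11.15, numpy 2.4.6, pandas 2.3.3, scipy 1.17.1). Tests were tried on simulated data. The labels do not say whether animals are litter mates, so p-values measure the spread between these animals. Named genes were the 15 hit in the most animals, the 12 members with the highest share, the 5 lowest Fisher p, up to 4 members per list, and Ppp1r12a, Otogl, Kcnb2 and Ptch1. Members and lists were chosen with earlier results of these data known. No mm9 sequence was used here.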

Additional observations from a re-analysis of the deposited data

Results flagged for a closer look

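Away PB sites were also counted in animals that entered no comparison of arms. Among the 5 control tumours, 1 had 26 away sites of 30 called PB sites (86.7%) at 815548 PB counts, and the others had 0, 1, 2 and 2. It stood apart from the others by Dixon's criterion, which chance meets in about 1 in 20 groups. Among the 8 tumours with no usable arm, 2 had more away sites than any control tumour or control DNA, with 344 away sites of 361 called (95.3%, 17742 PB counts) and 47 of 55 called (85.5%, 8006 PB counts). The control DNAs had 0 or 1 away site each. By share, 1 control tumour had its single called site away (100%, 115 PB counts), and the control tumour with 26 lay above the tumour with 47.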

How the results depend on the processing

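The away share by arm (0 points apart) changed sign, never past the threshold, at 100 bp (0.471 points), with IR or JX positions of at least 10 counts (0.178), with JX counts only (0.973), at 5% of the highest site (1.002), without the donor chromosome (0.167) and with the 2 spellings of an ID apart (0.575), and ran from -2.58 to 1.31 with each lane left out. It was -4.41 (5.28% against 9.70%, permutation p 0.0637) without the 40 animals of fewest PB counts and -6.28 (p 0.273) without positions listed in other animals. The number of members by arm turned to -0.0148 at sites read at both ends and to -0.402 without the 40 animals of fewest PB counts. The share of animals with a member kept its direction but missed the threshold at 100 bp (-3.25), 5% (-5.44) and 0.1% (-3.43) of the highest site, at both ends (-1.48), without the donor chromosome (-18.7) and without positions listed in other animals (-9.40), and was -32.4 to -22.1 with each lane left out. The donor chromosome difference was -1.39 at 100 bp. The difference at positions listed in other animals becomes 0 by construction when those are left out. For introns or exons the sign turned at 100 bp (-8.94, permutation p 0.0074), 5000 bp (-0.265), JX only (-0.371), 50 counts (-0.874), 5% (-11.6) and IDs apart (-0.0325), with -0.238 to 3.33 over lanes. For orientation it turned at 5000 bp (-1.08), JX only (-0.711), 5% (-7.79) and without the 40 animals of fewest PB counts (-0.668), with -1.20 to 4.87 over lanes. The number of chromosomes that passed was 1 in place of 2 at 100 bp, 50 counts, 5%, merging within 100 bp, without the animal of most members and without positions listed in other animals, and 1 to 2 over lanes, and 3 at 5000 bp, at 0.1% and without the 40 animals of fewest PB counts. The cause was not tested. Settings on spelling, on the 40 shallowest animals, on the 4 animals of most members, on listed positions, and the blocks by lane and by PB counts for animals with a member, were chosen after seeing the data. Sites at both ends left 4 members, too few for comparisons within animals. No paired analysis was possible because the arms hold different animals and the labels give them no shared replicate numbers. Most members lie in shallow PB libraries, where few counts support each site.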
